A study of Mus musculus with 12 samples.

Results

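Migratory DCs, dendritic cells that express *Ccr7* and *Fscn1*, were taken from the CD11c-selected cells of PyMT breast tumors by their raw counts of 4 genes. A cell was a member when it had at least 2 unique molecular identifiers (UMIs, each counting 1 captured mRNA molecule) of *Fscn1*, at least 1 of *Ccr7*, and none of *Cd3e* or *Epcam*. Of 11639 cells with at least 200 detected genes, 205 were members, or 1.76% (95% CI 1.53% to 2.02%). Because *Fscn1* and *Ccr7* chose these cells, their levels are a description, and the genes *Il12b*, *Tmem150c*, and *Nudt17*, named as markers from earlier results of the same data, are no independent support either. Members were compared with 393 type 1 conventional DCs (cDC1, at least 1 UMI of each of *Xcr1* and *Clec9a*). They were also compared with 443 cells called type 2 conventional DCs here (cDC2, at least 3 UMIs of *Cd209a*). Both populations were without *Ccr7*, and 4 cells met both of these definitions. The paper describes *Cd209a* as marking immature DCs and DCs derived from monocytes. It also reports the gene in a cluster resembling monocytes that become macrophages. Macrophage and monocyte marker sums, given below, were higher in cDC2 than in cDC1. Whether the cDC2 cells are conventional DCs was not tested.

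The study asked how signaling of coagulation factor Xa through protease-activated receptor 2 (PAR2) shapes immune cells of the tumor. All mice carried the MMTV-PyMT transgene, in which a mammary tumor virus promoter drives the polyoma middle T oncogene so that breast tumors arise spontaneously, and received no further treatment. There were 3 CD11c-selected samples from PAR2 WT mice and 3 from mice with the PAR2 G37I allele, whose receptor resists factor Xa, all bead-selected from digested late-stage tumors, frozen, and thawed before loading. Another 3 samples of each genotype held CD4/CD8-selected cells from mid-size tumors. The deposited matrix of the 6 CD11c-selected samples names no sample for any cell, so the pool counts as a single sample, the genotypes could not be compared, and neither a test nor the depth of a sample can be given. The labels give no age for a sample. The methods state a general age range for the adult mice used. For PyMT mice they state the usual ages at first tumors and at killing, when tumors had grown to the permitted limit. Bead selection set which cells were seen, and shares are of selected cells.

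Dendritic cells take up antigen in tissues and present it to T cells. On maturing they take up less antigen, raise costimulatory ligands, and gain the chemokine receptor CCR7, which guides them along lymphatic vessels to the draining lymph node. Fascin, encoded by *Fscn1*, bundles actin filaments in the long processes of mature DCs, and *Il12b* encodes the p40 subunit shared by the cytokines IL-12 and IL-23.

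The kept cells held 123642015 UMIs, and the median cell had 7943. Members had a median of 10399 UMIs (quartiles 6803 and 14441) and 2338040 in all, against medians of 16947 in cDC1 and 13338 in cDC2. The barcode list runs through the alphabet 6 times, and these barcode runs were linked to no sample or genotype. Runs held 31, 60, 39, 3, 38, and 34 members, between 0.833% and 2.16% of their cells. Of the barcodes, 76 occurred a further time in the list, and 3 members carried such a barcode. No doublet caller was used and no doublets were removed.

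Levels are UMIs summed over the cells of a population per 1000000 UMIs (CPM), ratios are ratios of these levels, and a gene is called higher or lower here at a ratio of at least 2-fold with 1 UMI added to each sum. All intervals are exact 95% intervals and cover counting error only, not the spread between mice. A population with no UMI of a gene was given the limit of 3 UMIs over the whole population. Comparisons ran over 8642 genes with a mean of at least 5 CPM over the 3 populations, a filter that a gene high in members alone can pass through its level in members.

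The markers below were chosen with these data known, so their levels describe the members and do not test the name. *Il12b* (GRCm38 chromosome 11, 44400063 to 44414033, plus strand) was at 1002 CPM in members (CI 962 to 1043), 9.33 in cDC1, and 3.36 in cDC2, and 124 members (60.5%) had a UMI of it. *Nudt17*, a nudix hydrolase gene on the minus strand of chromosome 3 (96706067 to 96708562), reached 166 CPM in members (CI 150 to 183) and was found in 62.9% of them, with 0 UMIs in cDC1 and 4 in cDC2. *Tmem150c*, on the minus strand of chromosome 5 (100077872 to 100159808), reached 46.2 CPM (CI 37.9 to 55.8) in 37.1% of members and had 0 UMIs in both cDC populations. In thinned cells, each reduced to 3000 UMIs with 18 members, 7 cDC1, and 10 cDC2 left out, *Il12b* was found in 50.3% of members, 1.30% of cDC1, and 0.462% of cDC2. In 253 *Epcam*-high cells without *Ptprc*, a population that should lack it, 0.395% had an *Il12b* UMI at a median of 17359 UMIs per cell.

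Members were also scored for 11 genes: *Cacnb3*, *Il4i1*, *Mreg*, *Nudt17*, *Tmem150c*, *Slco5a1*, *Ccl22*, *Socs2*, *Serpinb6b*, *Tnfrsf4*, and *Il12b*. These include the markers above, and most are leading genes of these same cells. Their counts therefore describe the members and are no independent support. Of the 11 genes counted per cell, the median member had 8, and the median cDC1 and cDC2 had 0. At least 5 were present in 172 of the 205 members, and 2 members had at most 1. These 2 members held 109 of the 272 UMIs of endothelial markers found among members, and 230 of the 272 lay in 2 members with at least 10 each. The 8 T cell markers, of which the rule set *Cd3e* to 0, summed to 17.5 CPM in members, 15.1 in cDC1, and 6.44 in cDC2. A UMI of these genes was found in 27 members, none of which had 10 or more. *Cd3g* was at 0 UMIs (at most 3 of the 2338040), *Cd3d* at 1, and *Trac* at 7, and the natural killer cell gene *Ncr1* and the neutrophil gene *S100a8* were at 0.

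Macrophage RNA was present. The 12 macrophage markers summed to 3549 CPM in members (764 to 5368 over the 5 runs with at least 30 members), 3476 in cDC1, 13450 in cDC2, and 29849 in all other cells, and none of the 12 was at 0 in members. *C1qa*, *C1qb*, and *C1qc* together had no UMI in 77 members and at least 3 in 60, and the 27 members with at least 20 held 2143 of the 2422 UMIs. Leaving out cells with any UMI of the keratin genes *Krt8* or *Krt18*, or at least 3 of these complement UMIs, kept 100 members, 220 cDC1, and 170 cDC2. The 8 monocyte markers summed to 2300 CPM in members, 576 in cDC1, 3560 in cDC2, and 1889 in all other cells. The 7 epithelial markers summed to 111 CPM in members, 115 in cDC1, and 440 in cDC2. With those cells left out, the log2 ratios to cDC1 and cDC2 were 6.39 and 8.43 for *Il12b*, 6.64 and 8.61 for *Cacnb3*, and 4.20 and 2.62 for *Cd274*. Fibroblast markers summed to 79.1 CPM in members, against 5.49 in cDC1 and 28.6 in cDC2, and 2 members held at least 10 UMIs each.

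At the edge of the rule, the 19 members with exactly 2 *Fscn1* UMIs had *Il12b* at 1303 CPM, *Cacnb3* at 373, and *Ccl22* at 541. *Il4i1* was at 205 CPM in them and *Nudt17* at 52.5, against 578 and 166 in all members. The 3 members with 1 *Ccr7* UMI had 38.2 CPM of *Il12b* and 993 of the endothelial gene *Plvap*, with 0 UMIs of *Mreg*, *Nudt17*, and *Tmem150c*. The 35 cells just outside, with 1 *Fscn1* UMI and *Ccr7*, had 310 CPM of *Il12b*, 191 of *Cacnb3*, 291 of *Ccl22*, and 944 of *C1qa*. A larger population of 798 cells had *Ccr7* but no *Fscn1*, and held only 68.7 CPM of *Il12b* and 10.1 of *Cacnb3* beside 11029 of the MHC class II gene *H2-Ab1*. In the 73 cells with at least 2 *Fscn1* UMIs and no *Ccr7*, *Il12b* was at 2.56 CPM and the endothelial gene *Plvap* at 392. Among the cells left out for *Epcam* (33 cells) *Il12b* was at 409 CPM and *Krt8* at 488, and the 4 cells left out for *Cd3e* had 944 CPM of *Il12b* and 493 of the T cell receptor gene *Trac*.

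Of all genes compared, 1282 (14.8%) were higher and 1363 (15.8%) lower in members than in cDC1, and 992 (11.5%) were higher and 1610 (18.6%) lower than in cDC2. Against both populations 716 (8.29%) were higher and 832 (9.63%) lower. The counts of each gene list below are to be read beside these shares. The median log2 ratio over all genes was -0.12 against cDC1 and -0.18 against cDC2. With 10 UMIs in place of 1 added to each sum, the share of calls that were higher went from 48.5% to 64.5% against cDC1 and from 38.1% to 55.2% against cDC2.

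The 25 genes with the highest ratio over both cDC populations, among genes found in at least 25% of members and apart from *Fscn1*, *Ccr7*, and the other genes that define the populations, came from several systems. Of chemokines they held *Ccl5* and *Ccl22*, and of cytokine and tumor necrosis factor receptors *Il2ra*, *Il15ra*, *Tnfrsf4* (OX40), and *Tnfrsf9* (4-1BB). *Slco5a1*, an organic anion transporter gene (chromosome 1, 12866549 to 12992650, minus strand), was at 75.3 CPM in members with 0 UMIs in both comparison populations, at least 183-fold higher than cDC1 and at least 187-fold higher than cDC2. *Mreg*, whose product melanoregulin acts in organelle transport (chromosome 1, 72159442 to 72212307, minus strand), was at 195 CPM against 1 UMI in cDC1 and 2 in cDC2, ratios of 1421 (CI 254 to 56257) and 726 (CI 200 to 6017). *Il4i1* (chromosome 7, 44816387 to 44840809, plus strand) encodes a secreted amino acid oxidase that limits T cells. It stood at 578 CPM in members (CI 548 to 610), 0.274 in cDC1, and 3.22 in cDC2, and was found in 82.9% of members.

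*Cacnb3*, a calcium channel subunit gene (chromosome 15, 98630840 to 98644529, plus strand), was at 490 CPM against 4.53 and 1.48, ratios of 108 (CI 76.6 to 158) and 332 (CI 185 to 667), and was found in 89.8% of members. It was also found in 41.1% of the epithelial cells, at 27.9 CPM. *Tbc1d4*, a Rab GTPase-activating protein gene, reached 2388 CPM in 97.1% of members, 33.2-fold over cDC1 (CI 30.4 to 36.4) and 66.9-fold over cDC2 (CI 59.1 to 75.9). *Socs2*, a feedback inhibitor of cytokine signaling, was at 418 CPM against 1.37 and 12.1. *Tcf7*, better known as a T cell transcription factor, had 99.7 CPM in 36.1% of members, with 3 UMIs in cDC1 and 2 in cDC2.

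The rest of the 25 were *H2-Eb2* (a class II gene), *Cd200*, *Slc4a8*, *Eno3*, *Snn*, *Car2*, *Gm13546*, *Stap2*, and *Adam11*, with levels in members from 33.8 CPM for *Stap2* to 263 for *Cd200*. *Gm13546* is annotated as antisense, and reads of antisense partners can be told apart only where counting used strand.

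**Figure D1:**
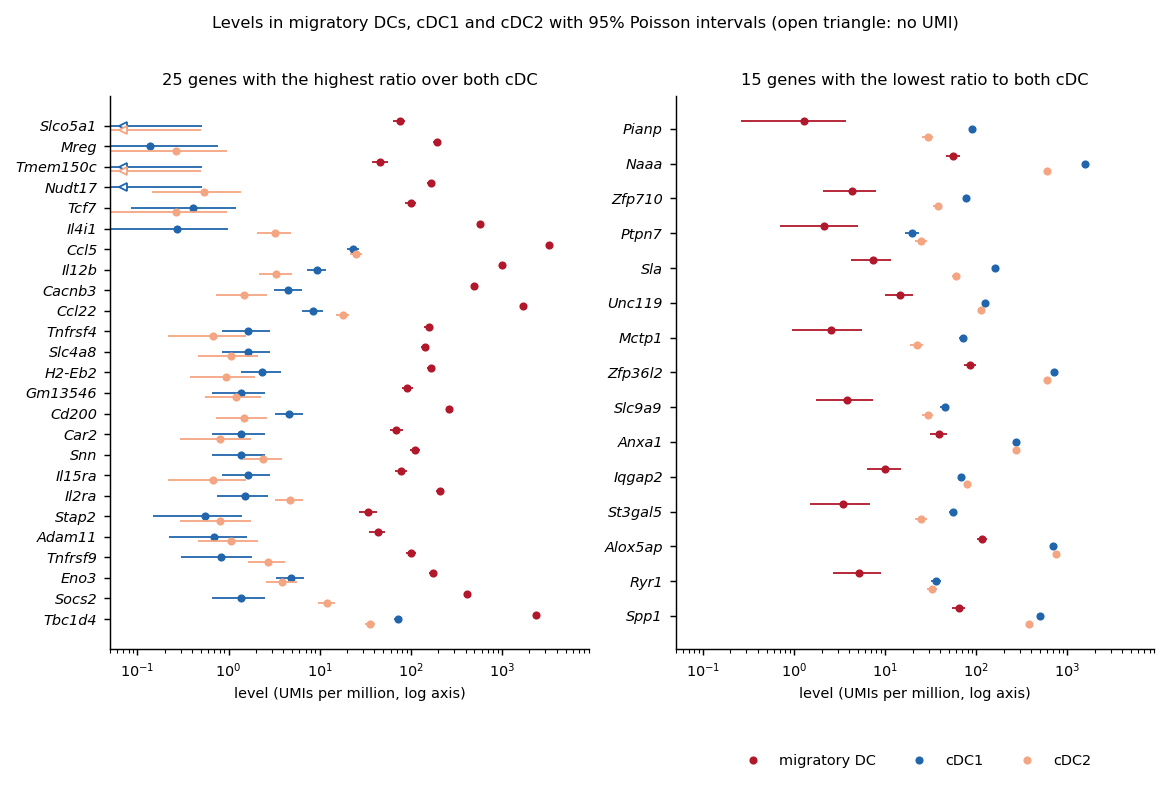
Levels in CPM (horizontal log axis) of the 25 genes with the highest ratio over both cDC populations (left) and the 15 with the lowest (right) in members, cDC1, and cDC2. Points are levels, bars are exact 95% Poisson intervals, and open triangles mark 0 UMIs. *Slco5a1* and *Tmem150c* had 0 UMIs in both comparison populations, and members lay below both for every gene on the right.

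The 15 genes with the lowest ratios, among genes found in at least 25% of both comparison populations, were led by *Pianp*, at 1.28 CPM in members (3 UMIs), 90.2 in cDC1, and 29.3 in cDC2, so that cDC1 stood 70.3-fold higher (CI 23.9 to 342). *Naaa*, a lysosomal amidase highly expressed in cDC1, was at 55.2 CPM in 12.2% of members, against 1561 in cDC1 and 594 in cDC2. *Sla*, an adaptor that dampens antigen receptor signaling, was at 7.27 CPM against 159 and 59.1. *Zfp36l2*, an RNA-decay factor gene, was at 85.5 CPM against 712 and 600, *Anxa1* at 38.9 against 271 in each, and *Alox5ap*, needed for leukotriene synthesis, at 116 against 699 and 739. *Spp1* was at 63.7 CPM against 494 and 379, but with cells holding complement or keratin UMIs left out its ratio to cDC2 turned to the other side, at a log2 of 0.21. The others were *Zfp710*, *Ptpn7*, *Unc119*, *Mctp1*, *Slc9a9*, *Iqgap2*, *St3gal5*, and *Ryr1*.

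**Figure D2:**
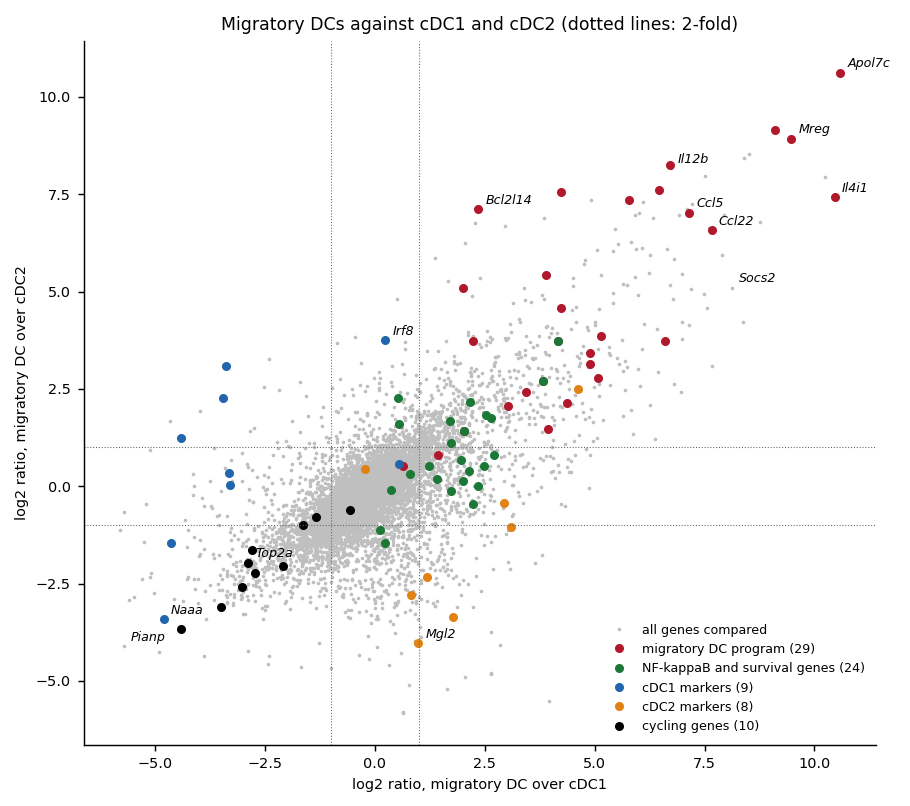
Log2 ratio of members over cDC1 (horizontal) and over cDC2 (vertical) for the 8642 genes compared, 1 point per gene, with 5 lists in color and dotted lines at 2-fold. Most genes of the migratory DC program lie in the upper right, most cycling genes in the lower left, and cDC1 and cDC2 markers off the diagonal on opposite sides.

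A list of 30 genes known from migratory DCs, of which 29 were compared, had 28 genes higher and 0 lower than in cDC1 (median log2 4.37) and 27 higher and 0 lower than in cDC2 (median 3.86). This list was drawn up with results of these data known, and holds several of the leading genes. Beside genes already named, *Tmem123*, which encodes the receptor porimin, was at 2249 CPM in 98.0% of members (35.6-fold over cDC1, CI 32.4 to 39.3, and 14.6-fold over cDC2, CI 13.7 to 15.6). *Apol7c*, an apolipoprotein L gene, was at 211 CPM in 24.9% of members with 0 UMIs in both cDC populations, at least 512-fold and at least 524-fold higher. *Stat4*, a transducer of IL-12 signals, was at 280 CPM against 2.74 and 21.1. *Cd83*, present on DCs as they mature, stayed under 2-fold in both comparisons, at 832 CPM against 538 and 576.

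Among chemokine ligands, *Ccl5*, which draws T cells, was at 3307 CPM in members (CI 3233 to 3381), 23.2 in cDC1, and 25.2 in cDC2. *Ccl22*, a ligand of CCR4 on regulatory and other T cells, was at 1724 CPM (CI 1671 to 1778) against 8.37 and 17.9, 206-fold (CI 160 to 270) and 96.5-fold (CI 81.2 to 116) higher. *Ccl17*, the other CCR4 ligand, was at 502 CPM against 16.7 and 56.4, but only 30.7% of members had a UMI of it. *Cxcl16*, a ligand of CXCR6 on T cells, was at 866 CPM in 95.6% of members, 3.05-fold over cDC1 and 3.41-fold over cDC2. Over the 18 ligands compared, 11 were higher and 0 lower than in cDC1, while 5 were higher and 11 lower than in cDC2, with a median log2 of 1.51 and -1.98.

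The 11 ligands lower than in cDC2 were *Ccl2*, *Ccl3*, *Ccl6*, *Ccl7*, *Ccl8*, *Ccl9*, *Ccl12*, *Ccl24*, *Cxcl1*, *Cxcl2*, and *Cxcl3*, several of which attract monocytes or neutrophils. *Ccl8* was at 151 CPM in members and 2562 in cDC2, 17.0-fold higher there (CI 15.3 to 19.0). The macrophage markers moved the same way, with 12 of 12 lower than in cDC2 and 0 of 12 lower than in cDC1, and their part in the result was not tested. Of 6 monocyte markers compared, 5 were lower than in cDC2, and 3 were higher and 3 lower than in cDC1. With complement and keratin cells left out, 10 of the 16 ligands then compared were higher and 3 lower than in cDC1, and 4 higher and 10 lower than in cDC2.

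Cytokine genes did not move as a group. *Il12a*, which encodes the p35 subunit that pairs with p40 to form IL-12, had 0 UMIs in members (at most 3 of 2338040, or 1.28 CPM), 1 in cDC1, and 1 in cDC2. *Il23a*, the p19 subunit of IL-23, had 5 UMIs, all in 1 member. *Ebi3* was at 48.8 CPM against 16.1 and 16.8, and *Il15*, which sustains CD8 T and NK cells, was at 18.4 against 2.88 and 8.86. Its partner *Il15ra*, which presents IL-15 in trans, was at 78.3 CPM, 47.5-fold over cDC1 (CI 26.6 to 93.7) and 117-fold over cDC2 (CI 49.1 to 363). *Il10* was at 2.99 CPM against 8.10 and 55.2, *Il18* at 5.56 against 43.0 and 21.6, and *Il1b* at 1470 against 782 and 2339. Of 13 compared, 6 were higher and 2 lower than in cDC1, and 4 higher and 4 lower than in cDC2.

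Of 12 costimulatory genes, 8 were higher and 1 lower than in cDC1 (median log2 2.70), and 5 were higher and 1 lower than in cDC2 (median 0.92). With trimmed-mean scaling, 8 were higher than in cDC2. *Cd40*, through which T helper cells license DCs, was at 267 CPM (CI 246 to 289) against 15.1 and 38.7. *Cd80* was at 214 against 48.4 and 114, and *Cd86* at 382 against 248 and 200, so both CD28 ligands were under 2-fold over cDC2. *Tnfsf4* (OX40 ligand) was at 44.9 CPM in members with 0 UMIs in cDC1 and 17 in cDC2, and *Cd70*, the ligand of CD27, at 18.4 CPM with 0 UMIs in both. The receptors *Tnfrsf4* (157 CPM) and *Tnfrsf9* (101 CPM), usually found on T cells, were at most 2.68 CPM in the cDC populations. *Cd48* was the gene that was lower, at 61.6 CPM against 187 and 153.

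Of 22 inhibitory and tolerance-linked genes, 14 were higher and 3 lower than in cDC1, and 10 higher and 6 lower than in cDC2. *Cd274*, which encodes PD-L1, was at 268 CPM (CI 247 to 290) in 77.1% of members, 13.9-fold over cDC1 (CI 11.6 to 16.9) and 7.12-fold over cDC2 (CI 6.18 to 8.23). *Pdcd1lg2* (PD-L2) was at 42.3 CPM against 2.20 and 8.59. *Cd200*, whose receptor restrains myeloid cells, was 56.3-fold over cDC1 (CI 39.8 to 82.0) and 178-fold over cDC2 (CI 98.7 to 358), although 39.9% of the epithelial cells also had a UMI of it. *Fas* was at 90.2 CPM, 31.3-fold over cDC1 and 3.93-fold over cDC2, *Pvr* was at 136 against 55.6 and 56.6, and *Aldh1a2*, which makes retinoic acid, at 53.5 against 2.88 and 37.1. *Ido1* was near the limit, with 3 UMIs in members. *Havcr2* (TIM-3) went the other way, at 19.2 CPM against 202 in cDC1 and 33.4 in cDC2, and *Btla* was lower than in cDC1 (43.6 against 200) and higher than in cDC2 (7.79).

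Cells with *Cd274* tended to be those with costimulatory genes as well: *Cd40* was found in 74.1% of the 158 members with *Cd274* and 51.1% of the others, and *Cd86* in 84.2% and 61.7%. Depth differs between cells, and its part in this was not tested. For *Il12b* the shares were 62.7% and 53.2%.

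NF-kappaB transcription factors drive DC maturation. In a list of their genes together with their regulators and survival genes, 18 of 24 were higher and 0 lower than in cDC1 (median log2 1.98), and 10 were higher and 2 lower than in cDC2 (median 0.60). *Relb* and *Nfkb2*, whose products pair in the alternative pathway, were at 506 CPM against 35.8 and 78.3, and at 212 against 52.1 and 79.2. *Birc2*, a ubiquitin ligase of that pathway, was at 402 CPM (CI 377 to 429), 17.9-fold over cDC1 and 13.4-fold over cDC2. *Traf1*, which restrains cell death, was 4.48-fold and 4.52-fold higher, at 866 CPM. The classical pathway genes *Nfkb1* (919 CPM), *Rel* (1398), *Nfkbia* (1168), and *Tnfaip3* (296) were 4.02-fold, 6.53-fold, 4.43-fold, and 5.08-fold over cDC1. Over cDC2 the same genes were 1.09-fold, 1.75-fold, 1.30-fold, and 1.01-fold, all under 2-fold. The promoters of 20 genes of this list were in the RefSeq table of windows, each 250 bases before the start site. The word of GGG, any 2 bases, and TTTCC, a form of the NF-kappaB motif, was found on either strand in 7 of them (35.0%), against 447 of 27025 genes (1.65%) and 1 of the 20 leading genes with a window. Several leading genes have no window in the table, and a match is a description of the letters, not of binding.

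A window of *Mcl1* holds the word and touches no annotated exon but is not printed. The windows below, in 4 others of these 7 genes, meet the same conditions. They are 120 bases from RefSeq on GRCm38.p6, read 5′ to 3′ along the gene, with the word or its reverse complement in capitals. *Rel* lies on the minus strand (chr11:23770996-23771115), *Nfkbia* on the minus strand (chr12:55492648-55492767), *Traf3* on the plus strand (chr12:111166250-111166369), and *Tnfaip3* on the minus strand (chr10:19015411-19015530).
Rel: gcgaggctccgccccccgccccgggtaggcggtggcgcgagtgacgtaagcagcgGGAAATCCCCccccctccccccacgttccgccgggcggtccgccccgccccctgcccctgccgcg
Nfkbia: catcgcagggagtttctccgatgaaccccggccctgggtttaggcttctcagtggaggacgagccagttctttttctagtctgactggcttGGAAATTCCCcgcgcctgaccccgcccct
Traf3: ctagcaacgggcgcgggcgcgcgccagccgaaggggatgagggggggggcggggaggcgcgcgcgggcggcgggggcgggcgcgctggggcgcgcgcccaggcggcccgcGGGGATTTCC
Tnfaip3: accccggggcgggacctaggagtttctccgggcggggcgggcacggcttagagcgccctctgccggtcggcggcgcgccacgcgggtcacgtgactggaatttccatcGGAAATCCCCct
The first base of the word along the gene lies 91, 29, 10, and 12 bases before the start site, in that order. In *Traf3* the word reads forward, and in the other genes it is the reverse complement.

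Interferon-induced genes were higher than in cDC1 for 14 of 23 and lower for 1 (median log2 1.89), and higher than in cDC2 for 10 and lower for 3 (median 0.72). With cells holding complement or keratin UMIs left out, the counts over the 20 genes then compared were 11 higher and 5 lower against cDC1, and 7 higher and 6 lower against cDC2. *Irf1*, a transcription factor induced by interferon, was at 204 CPM against 25.7 and 36.2. The guanylate-binding protein gene *Gbp2* was at 129 CPM against 6.86 and 30.9. *Isg15* was at 280 against 75.5 and 125, whereas *Mid1* was at 49.2 against 28.0 and 126. *Rsad2* was concentrated in few cells, with 20 members holding 85.8% of its UMIs. The cytosolic DNA sensor *Mb21d1* (cGAS) was low, at 7.27 CPM against 16.7 and 14.2, *Tmem173* (STING) was at 44.5 against 49.7 and 61.3, and *Ifi208* had 1 UMI.

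**Figure D3:**
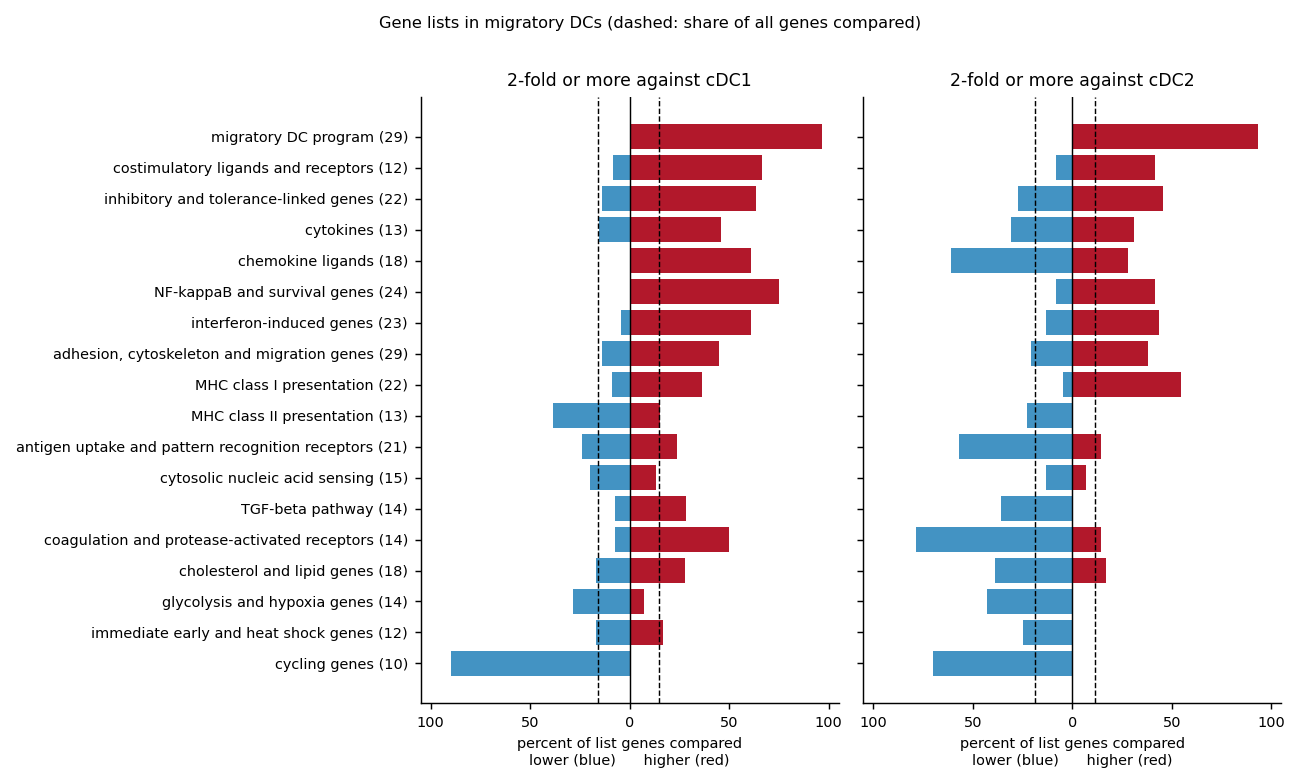
Share of the compared genes of each list (number in parentheses) that were at least 2-fold higher (red, to the right) or lower (blue, to the left) in members than in cDC1 and cDC2, with dashed lines at the shares over all 8642 genes. The migratory DC program has 28 of 29 genes to the right in the first comparison, and chemokine ligands and coagulation genes point right against cDC1 and left against cDC2.

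Of 13 MHC class II genes, 5 were lower and 2 higher than in cDC1, and 3 lower and 0 higher than in cDC2, with the rest within 2-fold. Over all genes 18.6% were lower than in cDC2, and the 3 class II genes are near that share. *H2-Ab1* was at 5154 CPM against 11308 and 9406, 2.19-fold higher in cDC1 (CI 2.15 to 2.24), and the peptide-loading genes *H2-DMa* (269 against 906 and 931) and *H2-DMb1* (194 against 929 and 856) were lower than in both. *March1*, the ubiquitin ligase that removes class II from the surface of immature DCs, had 7 UMIs (2.99 CPM) against 39.7 and 21.5 CPM. *H2-Aa*, *H2-Eb1*, and *Cd74* differed by less than 2-fold. Without the cells that hold complement or keratin UMIs, 5 were lower and 1 higher than in cDC2.

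Of 22 MHC class I genes, 8 were higher and 2 lower than in cDC1 (median log2 0.47), and 12 higher and 1 lower than in cDC2 (median 1.13). *H2-K1* was at 3259 CPM (CI 3186 to 3333) against 1200 and 1350, and *B2m*, the light chain of class I, at 4074 against 1724 and 2219. *Nlrc5*, the transactivator of class I genes, was 5.44-fold over cDC1 (CI 4.42 to 6.72) and 7.53-fold over cDC2 (CI 5.99 to 9.54). *Psme2*, of the proteasome activator, was 2.98-fold and 5.89-fold higher. The nonclassical genes *H2-Q6* and *H2-Q7* were 3.45-fold and 3.17-fold over cDC1 and 9.34-fold and 6.87-fold over cDC2, but are near-identical and their reads could be split between them. The chaperone gene *Pdia3* was lower, at 183 CPM against 587 and 402.

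Genes for antigen uptake and pattern recognition were mostly lower than in cDC2 (12 of 21, with 3 higher) and even against cDC1 (5 higher and 5 lower). *Ly75*, which encodes the uptake receptor DEC-205, stood out at 221 CPM, against 28.3 in cDC1 and 2.01 in cDC2. The macrophage markers were lower than in cDC2 as well (12 of 12), and their part in the result was not tested.

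*Gpr183*, the oxysterol receptor that positions DCs in lymphoid tissue, was at 197 CPM against 27.3 and 35.4, and *Ptger4*, a prostaglandin E receptor gene, at 229 against 64.1 and 59.5. *Ccr2*, by which monocytes enter tissue, was at 49.6 against 126 and 437. Of 8 receptor genes, 2 were higher and 2 lower than in cDC1, and 2 higher and 4 lower than in cDC2. Of 29 adhesion and cytoskeleton genes, 13 were higher and 4 lower than in cDC1, and 11 higher and 6 lower than in cDC2. The counts of lower genes are near the shares over all genes, 15.8% against cDC1 and 18.6% against cDC2. *Swap70*, an actin-binding protein needed for DC migration, was at 456 CPM against 26.1 and 56.9, *Marcksl1* at 903 against 43.5 and 205, and the integrin gene *Itga4* at 657 against 100 and 76.7. The integrin genes *Itgb2* (65.0 against 310 and 281), *Itgb7* (25.7 against 269 and 128), and *Itgal* (10.3 against 105 and 23.9) were lower than both.

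*Irf8*, needed for cDC1, was at 1134 CPM in members, 967 in cDC1, and 84.4 in cDC2, and was found in 87.3% of members. *Flt3*, the receptor for the DC growth factor, was at 199 against 202 and 28.7, and *Zbtb46*, a transcription factor of conventional DCs, at 107 against 35.0 and 17.5. *Irf4* was at 45.3 CPM against 5.21 in cDC1 and 94.9 in cDC2. Other cDC1 genes were low, with *Wdfy4* at 30.4 CPM against 763 in cDC1 and *Cadm1* at 27.4 against 273. The cDC2 genes *Mgl2* (65.4 against 1080) and *Clec10a* (30.4 against 314) were low against cDC2 as well, while *Sirpa* was at 163 against 21.3 in cDC1 and 221 in cDC2. The *Xcr1*, *Clec9a*, and *Cd209a* levels of the comparison populations were set by their definitions.

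Of the genes on which the study turns, *F2rl1*, which encodes PAR2, had 0 UMIs in members (at most 1.28 CPM), 1 in cDC1, and 14 in cDC2. *F10* was at 16.3 CPM in 5 members (2.44%), against 5.35 and 75.3, and *F7* at 3.42 against 5.49 and 26.2. *Procr*, the endothelial protein C receptor, was at 115 CPM in 38.0% of members (CI of the level 101 to 129) against 18.1 in cDC1, a ratio of 6.33 (CI 5.12 to 7.85), and 7.18-fold over cDC2 (CI 5.76 to 8.98). *Plat*, tissue plasminogen activator, was at 41.5 CPM against 3 UMIs in cDC1 (0.412 CPM) and 9.67 CPM in cDC2. Of 14 coagulation genes, 7 were higher and 1 lower than in cDC1, and 2 higher and 11 lower than in cDC2, where the 12 macrophage markers were all lower too. Of 14 TGF-beta pathway genes, 4 were higher and 1 lower than in cDC1, and 0 higher and 5 lower than in cDC2. *Thbs1* was at 87.7 CPM against 17.8 and 432, and *Tgfb1* at 121 against 167 and 273.

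Cycling genes were low. Of 10, 9 were lower than in cDC1 (median log2 -2.77) and 7 lower than in cDC2 (median -2.00), with *Top2a* at 20.5 CPM against 155 and 81.3 and *Ube2c* at 4.70 against 109 and 65.4. *Ldha*, of glycolysis, was at 183 CPM against 552 and 517, and of 14 glycolysis and hypoxia genes 4 were lower and 1 higher than in cDC1, and 6 lower and 0 higher than in cDC2. Among 18 lipid genes, where 5 were higher and 3 lower than in cDC1 and 3 higher and 7 lower than in cDC2, *Fabp5*, a fatty acid carrier, stood out at 2837 CPM in 88.3% of members, 40.5-fold over cDC1 and 11.9-fold over cDC2.

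The members were not alike in their cytokines and chemokines. *Ccl17* UMIs lay in 63 members, of which 20 held 85.0%, and all 63 had *Ccl22*, which was found in 71.1% of the other members. For *Apol7c*, 20 of its 51 positive members held 83.0% of the UMIs. The 20 highest members held 62.7% of *Il12b* UMIs, 60.2% of those of *Ccl22*, and 49.2% of those of *Ccl5*, against 26.5% for *Cacnb3* and 23.2% for *Tmem123*. A single cell carried 315 *Il12b* UMIs. The chemokine gene *Cxcl16* had 26.2% in its 20 highest members, and *Laptm4b*, a lysosomal membrane protein gene, had 73.9%. *Cxcl16* had 2025 UMIs in 196 members and *Laptm4b* 276 in 56. The part of abundance or of secretion in these shares was not tested. *Il12b* and *Ccl22* were found together in 106 members.

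Over the 5 runs with at least 30 members, *Tmem123* ranged from 2136 to 2322 CPM, *Samsn1* from 1076 to 1211, *Relb* from 473 to 552, and *Cacnb3* from 464 to 555. *Il12b* was at 625, 1205, 1263, 819, and 1227 CPM in runs 1, 2, 3, 5, and 6, lowest in run 1. The cell with 315 UMIs lies in run 3, which was at 678 CPM without it. *Ccl17* was at 67.2, 328, 1015, 240, and 222 CPM in the same runs, 15.1-fold higher in run 3 than in run 1. The same cell held 236 of the 511 *Ccl17* UMIs of run 3, and without it that run was at 581 CPM and 8.64-fold over run 1. *Ccl22* ranged 1.92-fold, or 1.37-fold without that cell, and *Ccl5* 1.58-fold, below *Cd40* (2.11-fold) and *Cd200* (2.25-fold). *Apol7c* ranged 14.0-fold, from 25.6 CPM in run 6 to 357 in run 3, and *Rsad2* 15.3-fold, from 9.50 to 145. *C1qa* ranged from 26.9 CPM in run 1 to 853 in run 2, so the amount of macrophage RNA differs between runs as well, and its part in the other ranges was not tested. The runs are linked to no mouse, and run 4, with 3 members, is not in these ranges.

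**Figure D4:**
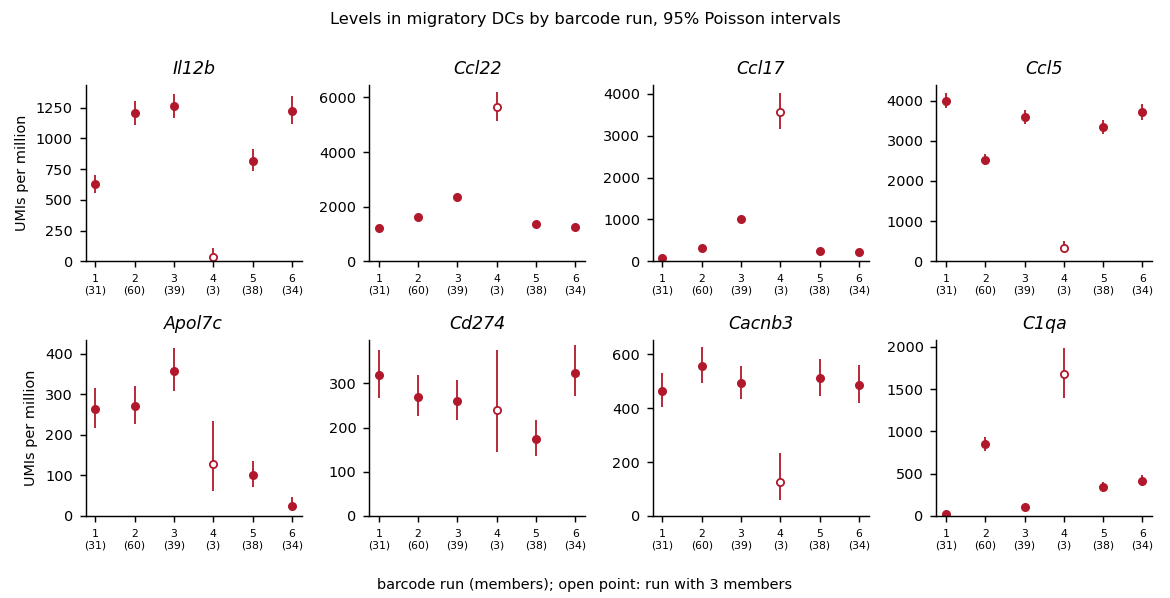
Levels in members (vertical, CPM) by barcode run (horizontal, members in parentheses) for 8 genes, with exact 95% Poisson intervals. *Cacnb3* stayed between 464 and 555 CPM over the 5 runs with at least 30 members, while *Ccl17* went from 67.2 to 1015. The open point is the run with 3 members.

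Correlations of log levels over the 205 cells and 2110 genes describe which transcripts go together. The cells come from 6 pooled samples that cannot be told apart, and differ in depth. The part of either in the correlations was not tested. The genes most like *Il12b* were *Irf8* (r = 0.49), *Cst3* (0.48), *Laptm4b* (0.45), *Nudt9* (0.44), and *Ncoa7* (0.42), and the least like was *Laptm5* (-0.42). *Ccl22* went with *Ccl17* (0.59), *Actb* (0.57), and *Psme2* (0.45), and *Ccl5* with *Epsti1* (0.53), *B2m* (0.47), and *H2-K1* (0.46). *Il12b* was little related to *Ccl22* (0.19), *Ccl17* (0.12), or *Cd274* (0.02).

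Some members still had UMIs of cDC1 or cDC2 genes. A cDC1 trace, at least 2 UMIs of *Xcr1*, *Clec9a*, *Cadm1*, *Tlr3*, *Itgae*, *Gcsam*, or *Snx22* and more of these than of the other list, was found in 18 members (8.78%). A cDC2 trace, by the same rule with *Cd209a*, *Clec10a*, *Mgl2*, *Sirpa*, *Itgam*, and *Clec4a4*, was found in 73 (35.6%), and the other 114 had neither. These are ranges of a score and not types: 33 members had UMIs of both lists, 69 had none, 23 had 1 UMI of the cDC1 list, and 38 had 1 UMI of the cDC2 list. Median depth was 14748 UMIs in the cDC1-trace members, 12318 in the cDC2-trace members, and 8269 in the rest. Of the cDC2 list, *Sirpa* was higher in members than *Mgl2* and *Clec10a*, and *Clec4a4* had 0 UMIs. How far the cDC2 trace rests on *Sirpa* alone was not tested. *Sirpa* was also among the genes least like *Il12b* over members (r = -0.34), which bears on the *Il12b* levels below.

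*Il12b* was at 2657 CPM in the 18 cDC1-trace members and 301 in the 73 cDC2-trace members, 8.82-fold higher (CI 7.74 to 10.1), and was found in 14 of 18 and 34 of 73 cells. Of the 2342 *Il12b* UMIs in members, these 2 groups held 786 and 327. The rest lay in the 114 members with neither trace, which are not in the ratio. The cell with 315 UMIs held 40.1% of the higher side, and without it the ratio was 5.89 (CI 5.10 to 6.80). It was 15.3 without members holding at least 3 complement UMIs, 20.7 with at least 3 UMIs of a list and none of the other (10 and 39 cells), and ran up to 11.3 with single barcode runs left out. Without run 3, which gave the lowest value, it was 5.60. *Laptm4b* was 17.9-fold higher in the cDC1-trace members (CI 11.3 to 29.3) and 214-fold at the stricter rule (CI 57.7 to 1790), and the interferon-induced genes *Rsad2* and *Oasl1* were 10.9-fold and 9.35-fold higher. Without members holding at least 3 complement UMIs, the *Rsad2* ratio was 3.30 (CI 1.31 to 7.99), and without run 6 it was 18.8. At the stricter rule it was 6.35 for *Rsad2* and 14.2 for *Oasl1*. Without the 1 cell that held over 40% of the UMIs of the side, it was 6.66 for *Rsad2* and 6.01 for *Oasl1*. *Ccl4*, found in 6 of 18 and 18 of 73 cells, was 38.9-fold higher, but 1 cell held 85.5% of its UMIs on that side. Without that cell the *Ccl4* ratio was 6.22. It was 1.03 (CI 0.108 to 4.96) without members holding at least 3 complement UMIs, and 0.385 at the stricter rule. It was 75.8 without run 2 and 6.80 without run 3.

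On the cDC2-trace side, *Gda* was at 143 CPM and *Cd1d1*, which presents lipids to NKT cells, at 115, with 1 UMI of each (3.38 CPM) in the cDC1-trace members. *Ccl6* was at 486 against 27.0 CPM, *Ccl9* at 370 against 54.1, *Pltp* at 123 against 10.1, and *Fabp5* at 3152 against 984. At the stricter rule the *Fabp5* ratio was 18.0 in place of 3.21. *Lyz2* moved with these, at 1812 against 554 CPM, 3.27-fold and 9.42-fold at the stricter rule, whereas *C1qa* was at 484 against 740, a direction that turned at the stricter rule (149 against 80.7) and without run 2 (376 against 227). The part of macrophage or monocyte RNA was not tested. Of the migratory DC program, *Laptm4b* (17.9-fold) and *Bcl2l14* (3.67-fold, CI 2.65 to 5.08) were higher in the cDC1-trace members. The ratio of cDC1-trace to cDC2-trace members lay nearer 1 for the genes that follow. It was 1.09 for *Ccl22* (CI 1.00 to 1.19), 0.997 for *Mreg* (CI 0.722 to 1.36), and 0.933 for *Cd40* (CI 0.732 to 1.18). It was 1.88 for *Ccl17* (CI 1.64 to 2.14) and 1.76 for *Ccl5* (CI 1.62 to 1.90). For *Socs2* it was 0.596 (CI 0.457 to 0.767), for *Nudt17* 0.611 (CI 0.394 to 0.916), for *Cd274* 0.727 (CI 0.547 to 0.953), and for *Il4i1* 0.794 (CI 0.662 to 0.948). All of these ratios are within 1 pool of cells, and cells are not replicates.

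**Figure D5:**
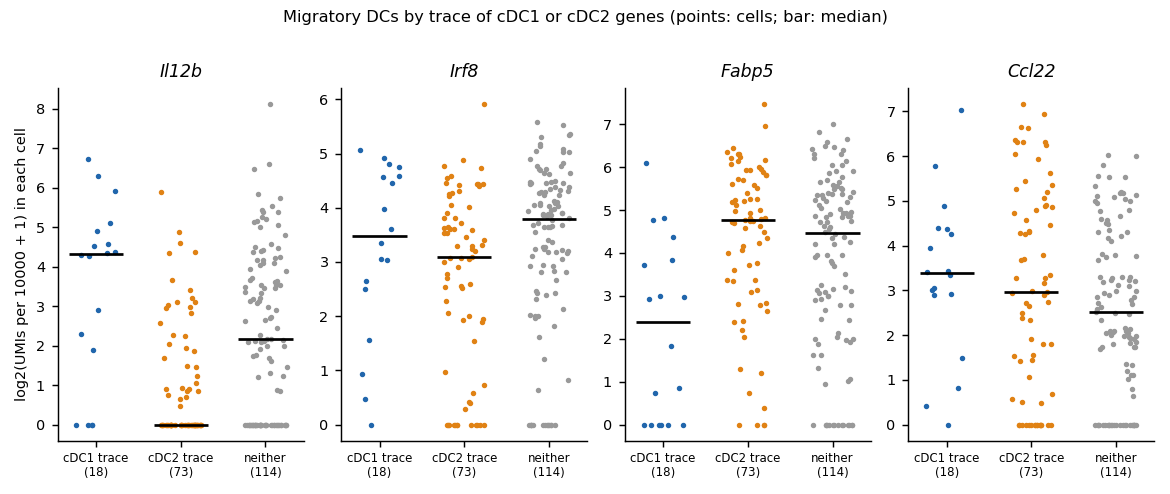
Levels per cell (vertical, log2 of UMIs per 10000 plus 1) of *Il12b*, *Irf8*, *Fabp5*, and *Ccl22* in members with a cDC1 trace (18), a cDC2 trace (73), or neither (114). Points are cells and bars medians. The median of *Il12b* is above 0 in the first and last groups and at 0 in the second, and *Ccl22* overlaps in all 3 groups.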

How the data were processed

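Cells of CD11c-selected and CD4/CD8-selected samples were measured on the 10x Genomics platform, and the authors deposited raw UMI counts in 1 matrix per selection. The submitters' processing notes name Cell Ranger 3.0.2 and mm10, with no annotation. Symbols matched GENCODE M21 for 30431 of 31053 genes (98.0%). Cells under 200 detected genes (341) were dropped, and counts were summed per population with Python 3.11.15, numpy 2.4.6, scipy 1.17.1, and pandas 2.3.3 (figures with matplotlib 3.10.9). Levels have exact Poisson, ratios exact conditional, and shares exact Clopper-Pearson intervals at 95%. The script was tested on simulated data. No test across genes was possible in 1 pooled sample. The text names the markers and genes of the rule and the 25 highest and 15 lowest genes by ratio. It also names a selection from the gene lists, mostly from their ends or named by the study, and some of the 8 leading genes per trace side. Mitochondrial, ribosomal, and hemoglobin genes, *Xist*, and the 7 genes that define the populations were left out. The members and lists were chosen with earlier results of these data known. Alternatives changed the thresholds of members and cells, left out runs, repeated barcodes, and cells with complement or keratin UMIs, took a mean over cells, changed the UMIs added, filter, fold, and scaling, and thinned cells, and a few were added after seeing the data. Promoter windows are from RefSeq on GRCm38.p6.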

Additional observations from a re-analysis of the deposited data

Results flagged for a closer look

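The rule for migratory DCs was also met in the CD4/CD8-selected cells, which the comparisons do not use. Of 22806 kept cells there, 4 met it, or 0.0175% (CI 0.00478% to 0.0449%), in 3 of the barcode runs. Their median was 13760.5 UMIs, and *Il12b* was at 3334 CPM, *Ccl22* at 2459, *Cacnb3* at 428, *Il4i1* at 745, and *H2-Ab1* at 8232, with 0 UMIs of *Cd3d* and *Cd8a*.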

How the results depend on the processing

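No paired analysis was possible because the matrix names no sample for any cell. Leaving out each barcode run moved the share of members between 1.64% and 1.85%, genes higher than in cDC1 between 1248 and 1324 and lower between 1334 and 1426, and genes higher than in cDC2 between 988 and 1043 and lower between 1582 and 1651. Without cells holding complement or keratin UMIs the share was 4.34%, with 2304 of 11639 cells left, and the log2 ratio to cDC2 changed side for *C1qb* (0.97), *Apoe* (0.39), and *Spp1* (0.21). With 10 UMIs added, 781 genes were lower than in cDC1 and 897 lower than in cDC2. Over the 16434 genes with at least 1 UMI, 4866 were higher and 2076 lower than in cDC1, and 3552 and 2680 than in cDC2. At 4-fold, the counts were 557 and 386 against cDC1 and 401 and 420 against cDC2. With at least 3 UMIs of a list and none of the other, 4.88% of members had a cDC1 and 19.0% a cDC2 trace, and the *Ccl4* ratio turned to 0.385. In thinned cells the traces were 3.21% and 15.5%. Trimmed-mean scaling moved the median log2 ratio to cDC2 from -0.18 to -0.04. Leaving out the 2 members with at least 10 endothelial UMIs, chosen after seeing the data as were the ranges and ratios without the highest cell and the ratios without complement UMIs, gave 1238 higher and 1415 lower than in cDC1, and 980 and 1700 than in cDC2. Of the single-gene, list, and median values under these alternatives, 3201 stayed within their limits, 660 moved, and the 4 named above were past 2-fold and changed side. Values under 2-fold could change side too, such as the *C1qa* trace ratio, and with 10 UMIs added the median log2 ratio turned from -0.12 to 0.06 against cDC1 and from -0.18 to 0.01 against cDC2. At the depth of the members, a gene without a UMI may still be at up to 1.28 CPM.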
